A study of Mus musculus with 28 samples.

Results

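A set of 10 genes that mark the somatic cells of the mouse testis was followed through H3K27ac peak tables made from purified germ cells. They are Sox9, Wt1, Amh and Gata4, used as markers of Sertoli cells, Cyp17a1 and Star of Leydig cells, Acta2 and Myh11 of peritubular myoid cells, Pdgfra of interstitial stromal cells and Cdh5 of endothelium. Every H3K27ac peak whose listed gene was 1 of these 10 was taken, which gave 510 of 471458 peaks. A promoter peak was any peak reaching within 1 kb of a transcription start listed under that symbol alone, and the 10 genes were read beside the 17923 genes that had such a start.

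H3K27ac, acetylation of lysine 27 on histone H3, marks active promoters and enhancers, and it was profiled by ChIPmentation, a chromatin immunoprecipitation in which a transposase adds the sequencing adapters. All cells came from testes of C57BL/6 mice, wild type (WT) or knocked out for Scml2 (KO), a germline Polycomb-related gene. Spermatogonia carrying the surface protein Thy1 (Thy1+) or c-Kit (c-Kit+) came from mice of either genotype at postnatal day 7. Adult KO mice gave pachytene spermatocytes, cells in meiosis (PS), as well as round spermatids, the haploid cells that follow (RS). Each of these 6 groups had 2 libraries, 12 in all, and 16 libraries of input chromatin had no immunoprecipitation. The labels name sedimentation or magnetic sorting as the isolation without saying which population had which, and they state neither the purity of a population nor whether replicates came from separate animals, so p-values measure the spread between these libraries only. WT adult H3K27ac libraries were not analysed here. Adult and juvenile cells therefore differed in age, in germ cell stage and possibly in isolation, and these cannot be told apart.

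Germ cells in the seminiferous tubule sit among Sertoli cells, which hold and feed them. The tubule is wrapped by contractile myoid cells, and the space between tubules holds androgen-making Leydig cells, vessels, stromal cells and macrophages. A peak at a somatic gene in a germ cell preparation can lie in germ cells or in other cells of the preparation. In such bulk libraries, fewer cells carrying a mark and less of the mark per cell cannot be told apart.

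The H3K27ac libraries held 17877 to 73316 peaks and the inputs 359 to 1192. Read depth was not given, and the background height that the authors' fold enrichment divides by ran from 0.564 to 1.62. It was 1.62 and 0.876 in PS, 1.56 and 0.849 in RS, and 0.564 to 1.11 in spermatogonia, so the groups overlapped. Promoters of all 8 meiotic genes examined (such as Sycp3 and Piwil1) and of all 7 spermatid genes (such as Acr and Tnp2) had a peak in all 4 adult libraries. None of these 15 had one in all 4 KO spermatogonial libraries. Over all genes, 67.1% had a promoter peak in all 4 adult and 53.3% in all 4 KO spermatogonial libraries. The KO spermatogonial replicates differed. Of the 8 meiotic genes, 6 had a peak in replicate 1 of Thy1+ KO and 6 in that of c-Kit+ KO. In replicate 2 these numbers were 0 and 2. Of 9 spermatogonial genes, 6 had a promoter peak in both PS libraries, 6 in both RS libraries and 1 in all 4 KO spermatogonial libraries. In Thy1+ KO and in c-Kit+ KO, 8 of the 9 had a peak in replicate 1 and 2 in replicate 2. In PS and in RS, 8 had one in replicate 1 and 6 in replicate 2. This list thus did not mark the spermatogonial libraries. Scml2 had a promoter peak in replicate 1 of Thy1+ KO and of c-Kit+ KO and in both PS libraries, and in neither RS and none of the 4 WT libraries. A histone mark is no measure of the Scml2 transcript, and these calls did not check the genotype.

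Across the 10 markers, a promoter peak was present in both PS libraries for 7 genes, against 72.2% of all genes, and in both RS libraries for 6, against 71.2%. It was present in all 4 KO spermatogonial libraries for 3 genes, against 53.3% of all genes. The replicates disagreed there. Replicate 1 held 8 markers in Thy1+ KO and 9 in c-Kit+ KO, against 68.0% and 63.5% of all genes. Replicate 2 held 4 in each, against 58.7% and 56.3%, so the count over all 4 was limited by replicate 2. Gata4, Pdgfra and Cdh5 had a promoter peak in all 12 libraries, as did 48.8% of genes, and Cyp17a1 in none, as was the case for 16.1%. No input held a promoter peak at any of the 10, while 0.312% of all genes had 1 in some input. The 3 input peaks assigned to the markers lay outside promoters, at Cdh5 in RS WT replicate 2 and Thy1+ KO replicate 2 and in an intron of Myh11 in PS KO replicate 1. Among the deposited peaks, the markers were thus detected in the adult cells at about the rate of genes in general. The number in both RS libraries fell with a stricter peak filter and with equal numbers of peaks (below). The share of all genes at those settings was not counted.

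**Figure D1:**
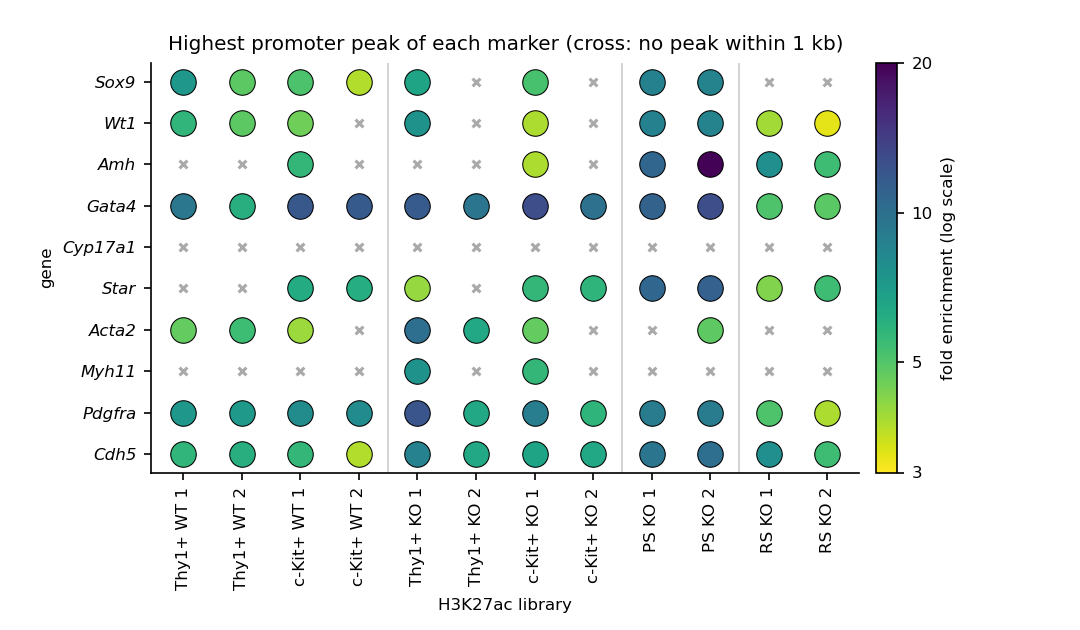
Fold enrichment of the highest promoter peak of each marker gene (rows) in each of the 12 H3K27ac libraries (columns). Circles are coloured by fold enrichment on a log scale and crosses mark libraries with no peak within 1 kb. Gata4, Pdgfra and Cdh5 are filled throughout, Cyp17a1 is empty throughout, and Sox9 is filled in both PS libraries and empty in both RS libraries.

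Marker promoters were weak by the standards of each library. Fold enrichment here is the authors' ratio of signal height to background. In PS, the median marker promoter stood at 9.53-fold in replicate 1 and 9.60-fold in replicate 2, beside 16.4-fold and 17.6-fold for all genes with a promoter peak. In RS the marker medians were 5.08-fold and 5.14-fold, beside 14.5-fold and 12.4-fold. Ranked within its library, the median marker exceeded 25.6% and 24.2% of called promoters in PS, but only 8.58% and 8.76% in RS. The same rank ran from 14.8% to 24.7% over the 8 spermatogonial libraries. The RS libraries were the lowest of the 12 by this rank, over the markers called in each.

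Marker promoter peaks were broader in PS than in RS. The median width was 2843 and 2826.5 bp in the PS libraries, beside 1853.5 and 1753 bp for all called promoters. In RS it was 934.5 and 182.5 bp, beside 1817 and 1536 bp for all. For 7 of the 10 markers, both PS libraries had a peak and the lower PS fold exceeded the higher RS fold or no RS peak was called. This held for 46.7% of all genes, and the reverse pattern for 8.68% of genes and 0 markers. Among genes with a peak in both PS libraries it was 7 of 7 markers and 64.6% of genes. Fold enrichment was somewhat higher in PS than in RS over all promoters too, so the tests below use values centred on each library's median.

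Sox9, the transcription factor that directs and maintains Sertoli cell fate, lies on chromosome 11 from 112782210 to 112787757 on the + strand. Its promoter peak stood at 8.77-fold and 8.53-fold in the PS libraries and was absent from both RS libraries. That PS-only pattern was seen in 2.37% of genes and, among the deposited peaks, in no other marker. With peaks of a −log10 q of at least 5 it held for 2 markers, Sox9 and Wt1, beside 2.90% of all genes. With equal numbers of peaks it held for 5, with Gata4, Star and Pdgfra added, beside 3.59% of all genes. In WT spermatogonia the promoter was called at 7.34-fold and 4.83-fold in Thy1+ and at 5.13-fold and 3.72-fold in c-Kit+. In KO spermatogonia only replicate 1 had a peak, at 6.58-fold in Thy1+ and 5.20-fold in c-Kit+. The WT and KO values overlapped.

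Promoter included, Sox9 carried 9 peaks in each PS library, which ran from about 9 kb upstream of the start into the gene body. It carried between 0 and 3 in each spermatogonial library and 0 in both RS libraries. The farthest upstream summits lay 8783 bp before the start in PS replicate 1 and 9090 bp in replicate 2. Tests were made only where every library compared had a peak, so Sox9 has no test of RS against PS.

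Wt1, a zinc-finger factor needed for the Sertoli lineage, also had its highest promoter peaks in PS and weak ones in RS. It lies on chromosome 2 from 105126529 to 105173614 on the + strand, and its start faces that of the antisense RNA AI314831 (Wt1os in RefSeq), 19 bp away, so the promoter signal cannot be assigned to either gene. The promoter stood at 8.77-fold and 8.53-fold in PS and at 3.91-fold and 3.25-fold in RS. In the 5 of 8 spermatogonial libraries with a peak it ran from 3.78-fold to 7.59-fold. RS replicate 2 was at the lowest fold that its library lists. Relative to each library's median region, RS minus PS was -1.09 log2 units at the Wt1 promoter (SE 0.19, limma, adjusted p = 0.00935, 2 against 2 libraries that did not overlap), a call lost, among the fits that gave a value, only without PS replicate 2 (-1.24, adjusted p = 0.159).

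Listed under Wt1 alone were 9 and 13 further peaks in the PS libraries, in introns and exons as far as 13384 bp past the start. There were 0 such peaks in both RS libraries and 0 or 1 in each spermatogonial library. The PS signal at Wt1 thus covered the first part of the gene, whereas the RS signal was the shared promoter alone.

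**Figure D2:**
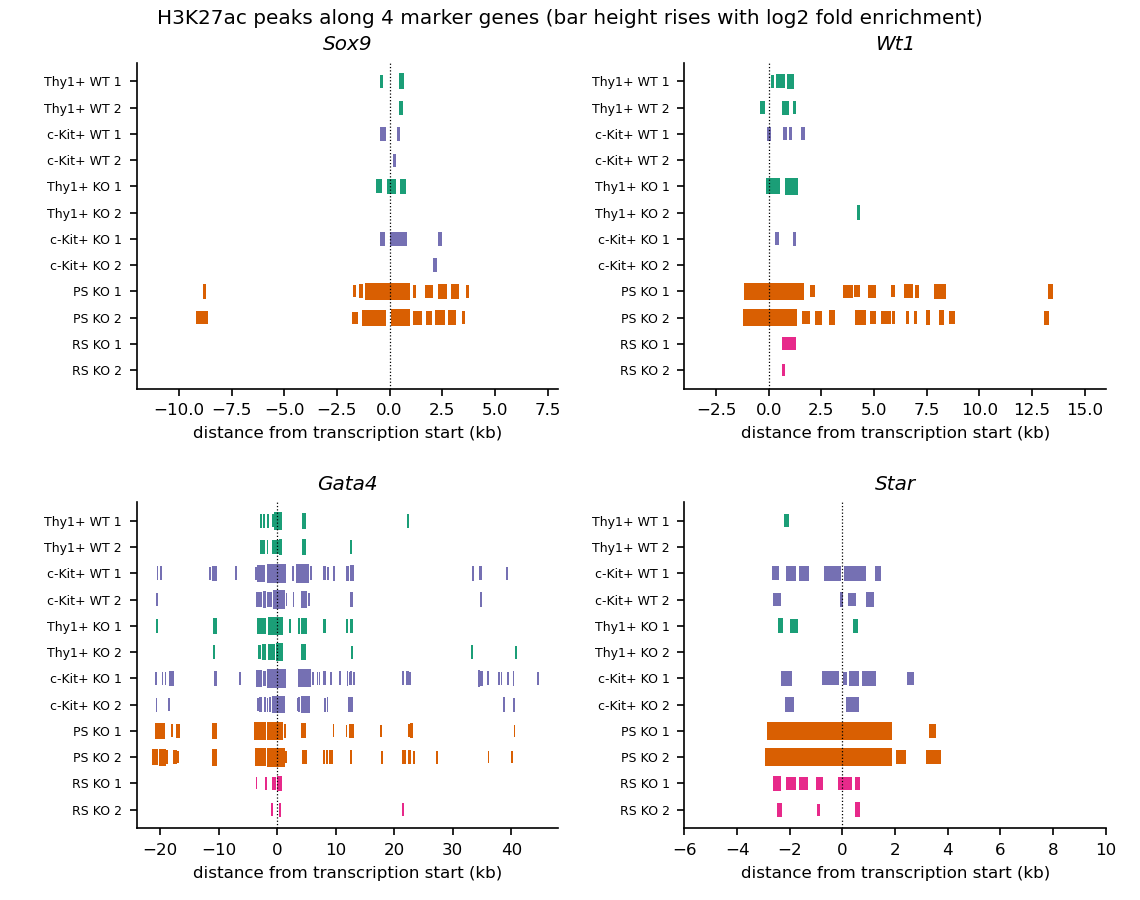
H3K27ac peaks listed under Sox9, Wt1, Gata4 and Star in each of the 12 libraries (rows), by distance from the transcription start in kb (0, dotted; positive is into the gene), with peaks on lines shared with a neighbouring gene drawn too. The bars span the peaks, their height rises with log2 fold enrichment and colours mark Thy1+, c-Kit+, PS and RS. Sox9 and Wt1 carry their longest rows of peaks in PS, and Gata4 carries more peaks in c-Kit+ and PS than in RS.

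Amh, anti-Müllerian hormone made by Sertoli cells, lies on chromosome 10 from 80805248 to 80807648 on the + strand, in a crowded stretch in which Sf3a2 ends beside it. Its promoter was called at 10.7-fold and 19.7-fold in PS and at 7.82-fold and 5.41-fold in RS. It was called in none of the 4 Thy1+ libraries and in replicate 1 only of c-Kit+ WT (5.70-fold) and c-Kit+ KO (3.78-fold). The PS peaks were 4609 and 3759 bp wide with summits 1663 and 1645 bp past the start, inside the gene and outside the 1 kb window, so their height is not that of the start itself. Over the merged region, which also carries lines listing Oaz1 and Plekhj1, RS minus PS was -0.90 log2 units (SE 0.27, limma, adjusted p = 0.0429). The call was lost without PS replicate 2 (-0.59), RS replicate 1 (-0.95) or RS replicate 2 (-0.87), under quantile normalization (-0.89) and with stricter peaks (-0.74).

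Gata4, a GATA factor shared by Sertoli, Leydig and other somatic gonadal cells, was the strongest marker in c-Kit+ spermatogonia. It lies on chromosome 14 from 63198915 to 63245260 on the - strand in the files, while RefSeq extends the gene to 63271712. The promoter stood at 11.97-fold and 11.8-fold in c-Kit+ WT and at 12.8-fold and 9.91-fold in c-Kit+ KO. Thy1+ values were 9.43-fold and 6.03-fold in WT and 11.6-fold and 9.59-fold in KO. In c-Kit+ libraries it exceeded 65.4% to 77.1% of called promoters, which is above the rank of every other marker in those 4 libraries.

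PS held the Gata4 promoter at 11.1-fold and 12.8-fold and RS at 5.08-fold and 4.87-fold. Uncentred, both RS values lay below those of all 8 spermatogonial libraries, and PS replicate 2 was level with the highest of them. Centred on each library's median, the 4 adult minus the 4 KO spermatogonial libraries gave -1.18 log2 units at this region (SE 0.24, limma, adjusted p = 0.00309), with no overlap. The median change over all regions of that fit was -0.12. The marker regions with a peak in all 8 libraries were 2, at Gata4 and Cdh5, and both were called lower, where 32.3% of 10287 regions were called, 9.85% higher and 22.4% lower. RS minus PS at the Gata4 promoter was -1.06 (SE 0.20, limma, adjusted p = 0.0101). The adult call held when any 1 of the 8 libraries was left out, and the RS call was lost only without PS replicate 2 (-1.10, adjusted p = 0.159).

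Gata4 also had the most peaks of the 10 genes, 160 in all. There were 21 and 11 in c-Kit+ WT and 31 and 16 in c-Kit+ KO, against 7 and 8 in Thy1+ WT and 11 and 9 in Thy1+ KO. PS held 15 and 24, and RS 4 and 3. A region centred at -20201 bp from the listed start, inside the longer RefSeq gene, stood at 6.86-fold in PS replicate 1 and 8.53-fold in replicate 2 and had a peak in neither RS library. Another, centred at -10702 bp, stood at 8.01-fold and 8.53-fold in PS and was likewise uncalled in RS. Neither region was particular to PS, as KO spermatogonial libraries reached 4.66-fold at the former and 8.10-fold at the latter. The share of all regions called in PS and not in RS was not counted.

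Between the c-Kit+ and Thy1+ spermatogonia, the marker regions that passed the test were both at Gata4. Thy1 enriches less differentiated spermatogonia and c-Kit differentiating ones. A region over an exon, 14:63239313-63241973, was 0.77 log2 units higher in c-Kit+ (SE 0.16, limma, adjusted p = 0.0192) and the promoter 0.64 higher (SE 0.16, adjusted p = 0.0451), with genotype as a covariate and 4 libraries a side that did not overlap. Another Gata4 region, centred at -2858 bp from the start, was 0.55 higher without passing (adjusted p = 0.0766). These were 2 of 6 marker regions tested, where 1.09% of all 9585 regions were called, 0.803% higher and 0.282% lower. The exon call was lost without replicate 1 of Thy1+ WT, Thy1+ KO or c-Kit+ KO, or without replicate 2 of c-Kit+ WT or c-Kit+ KO, over which the value was 0.61 to 0.79. Among the leave-one-out fits the promoter call was kept only without Thy1+ KO replicate 2 (0.75; the others gave 0.56 to 0.70), and it was lost under quantile normalization (0.63) and with stricter peaks (0.65).

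Star, which carries cholesterol into mitochondria at the start of steroid synthesis, lies on chromosome 8 from 25808513 to 25815982 on the + strand. Its promoter had a peak in all 4 c-Kit+ libraries, at 6.27-fold and 6.20-fold in WT and 5.67-fold and 5.83-fold in KO. Of the 4 Thy1+ libraries only KO replicate 1 had a peak, at 4.05-fold. This c-Kit+ pattern (all 4 against at most 1) was found in 0.391% of genes, and the opposite pattern in 0.485% of genes and no marker.

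In PS the Star promoter was covered by a single peak of 4765 and 4810 bp at 10.7-fold and 11.2-fold. In RS the highest promoter peaks were 543 and 190 bp wide, at 4.30-fold and 5.41-fold. Over the merged region, which also carries lines listing Bag4, RS minus PS was -0.67 log2 units (SE 0.19, limma, adjusted p = 0.0343). Leaving out any 1 of the 4 libraries ended the call, with values from -0.78 to -0.68, as did stricter peaks (-0.51).

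Cyp17a1, the enzyme that commits steroids to the androgen path, had no promoter peak in any of the 12 libraries. It lies on chromosome 19 from 46667165 to 46673000 on the - strand. Its 9 peaks were 1 in each PS library, 3 in each RS library and 1 intron peak in c-Kit+ KO replicate 1. The 8 adult peaks lay between 6399 and 8786 bp past the start, beyond the end of the gene. The tested region, 19:46665069-46666128, lies within the long non-coding RNA Gm36602 of RefSeq. There RS stood at 7.82-fold and 4.33-fold and PS at 5.34-fold and 4.27-fold. The groups overlapped and the difference of 0.48 log2 units did not pass (limma, adjusted p = 0.205). The Leydig markers thus split, with promoter acetylation at Star and none called at Cyp17a1.

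Acta2, smooth muscle actin, and Myh11, smooth muscle myosin heavy chain, are contractile proteins of myoid and vascular muscle cells. The Acta2 promoter, on the - strand of chromosome 19 with its start at 34255373, had a peak in all 4 Thy1+ libraries, at 4.72-fold and 5.43-fold in WT and 10.1-fold and 6.40-fold in KO. It had a peak in replicate 1 only of c-Kit+ WT (3.99-fold) and c-Kit+ KO (4.73-fold), in PS replicate 2 (4.80-fold) and in neither RS library. In each genotype both Thy1+ values were above the 1 c-Kit+ value. No Acta2 region had a peak in every library of a comparison, so Acta2 has no test.

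Myh11, on chromosome 16 with its start at 14291408 on the - strand, had a promoter peak in 2 libraries, Thy1+ KO replicate 1 (7.59-fold) and c-Kit+ KO replicate 1 (5.67-fold). These are the KO spermatogonial libraries with the highest background heights, and Thy1+ KO replicate 1 also had the most genes with a promoter peak among the 8 spermatogonial libraries. Both PS libraries had 0 Myh11 peaks of any kind, and RS replicate 1 had 2 outside the promoter. Of the 4 adult libraries, 1 had an Acta2 promoter peak and 0 a Myh11 promoter peak.

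Pdgfra, a receptor for platelet-derived growth factor on stromal and Leydig precursor cells, lies on chromosome 5 with starts listed at 75152291 and 75156166 on the + strand. Its promoter was called in all 12 libraries. WT spermatogonia ranged from 7.24-fold to 8.06-fold and KO spermatogonia from 5.83-fold to 12.2-fold. PS stood at 9.15-fold and 9.06-fold and RS at 5.08-fold and 3.79-fold. The PS and RS values did not overlap, but they come from different places. The PS summits lay 1728 and 1839 bp past the first start, outside the 1 kb window. The RS peak was at the second start in replicate 1 and at the first in replicate 2. Spermatogonial values also mix both starts. No merged region of Pdgfra held a peak in all 4 adult libraries. An upstream region, 5:75148406-75149130, was called in all 4 KO spermatogonial libraries at 5.20-fold to 7.03-fold and in no adult library. The share of all regions with that pattern was not counted.

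RefSeq promoter sequence of the GRCm38.p6 build matched 2 of the 10 genes. Both are shown because no sequence was at hand for the other 8. The Acta2 promoter was called in 1 of 4 adult libraries, and Pdgfra was called at either start in all 4. The Pdgfra sequence ends just before the first listed start, 75152291, and RS replicate 1 had no peak within 1 kb of that start. No sequence was used for Sox9, Wt1, Amh, Gata4, Cyp17a1, Star, Myh11 and Cdh5. Each sequence runs 5′ to 3′ from 150 bases before the RefSeq start to 30 bases after it, and capitals mark the bases from the start onward.
Acta2, chr19:34255344-34255523, - strand: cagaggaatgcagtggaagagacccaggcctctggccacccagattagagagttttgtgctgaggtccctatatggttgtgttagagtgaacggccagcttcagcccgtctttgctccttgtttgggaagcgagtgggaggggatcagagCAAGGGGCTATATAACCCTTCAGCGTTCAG
Pdgfra, chr5:75152101-75152280, + strand: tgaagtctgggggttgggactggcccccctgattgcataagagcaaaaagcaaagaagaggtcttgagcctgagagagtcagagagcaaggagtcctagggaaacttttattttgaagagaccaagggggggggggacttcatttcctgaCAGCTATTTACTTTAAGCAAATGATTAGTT

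A set of 4 motifs was searched on both strands of the 300-base RefSeq windows around these starts: AGATAA for GATA factors, AAGGTCA for the steroidogenic factor NR5A1, TATAAA, and the CArG box bound by serum response factor. They were present in 11.2%, 4.72%, 13.6% and 1.63% of 32851 promoters. Neither window held any of them, which says only that these letters are not in these windows. The CArG box was searched only as CCWWWWWWGG, with W for A or T. Near matches were not counted, and the Acta2 sequence holds ccctatatgg and ccttgtttgg, each with a C or G inside that run. The letters TATATAA, chosen after the sequence was seen, begin 8 bases after the first capital of Acta2 and occur in 3.24% of promoters.

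Cdh5, VE-cadherin, holds endothelial cells together. It lies on chromosome 8 from 104101625 to 104144502 on the + strand, and RefSeq places the long non-coding RNA Gm29682 across its promoter. The promoter was called in all 12 libraries. It stood at 5.76-fold and 6.03-fold in Thy1+ WT, 5.70-fold and 3.72-fold in c-Kit+ WT, 8.61-fold and 6.40-fold in Thy1+ KO and 6.62-fold and 6.41-fold in c-Kit+ KO. PS stood at 9.53-fold and 10.1-fold and RS at 7.82-fold and 5.41-fold. Summits in RS replicate 1, Thy1+ KO replicate 1 and both c-Kit+ KO libraries lay 1416 to 1526 bp past the start, outside the 1 kb window. Heights in those libraries are thus not those of the start itself.

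Uncentred, the mean fold over the merged Cdh5 promoter region was higher in the 4 adult libraries (8.22 ± 2.12, SD, n = 4) than in the 4 KO spermatogonial libraries (7.01 ± 1.07, SD, n = 4). Centred on the library median, adult minus KO spermatogonia was -0.47 log2 units (SE 0.16, limma, adjusted p = 0.0349). The direction thus depends on centring, since the median region stood at 13.5-fold to 19.7-fold in adult and 7.58-fold to 16.2-fold in KO spermatogonial libraries. The call was lost under quantile normalization (-0.21, adjusted p = 0.324) and without replicate 2 of Thy1+ KO, c-Kit+ KO or RS or replicate 1 of c-Kit+ KO, PS or RS, over which the value was -0.51 to -0.33.

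Cdh5 also had a distant site. Peaks listed under Cdh5 at 8:103800521-103803561, centred at -299584 bp from the start and overlapping no gene in the RefSeq table, were present in all 4 adult libraries and in none of the 8 spermatogonial libraries. Adult libraries held 63322 to 73316 peaks and spermatogonial ones 17877 to 36362, and the share of all regions with this pattern was not counted. The pattern is therefore not shown to be particular to this site. The peaks there stood at 11.4-fold and 5.86-fold in PS and 15.6-fold and 13.5-fold in RS. The region was 1.02 log2 units higher in RS (SE 0.30, limma, adjusted p = 0.0421), the only marker region called in that direction, and the call was lost without PS replicate 2 (0.40) or RS replicate 2 (0.95) and under quantile normalization (1.02, adjusted p = 0.0527). The files list it under Cdh5, and no link between them was tested.

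**Figure D3:**
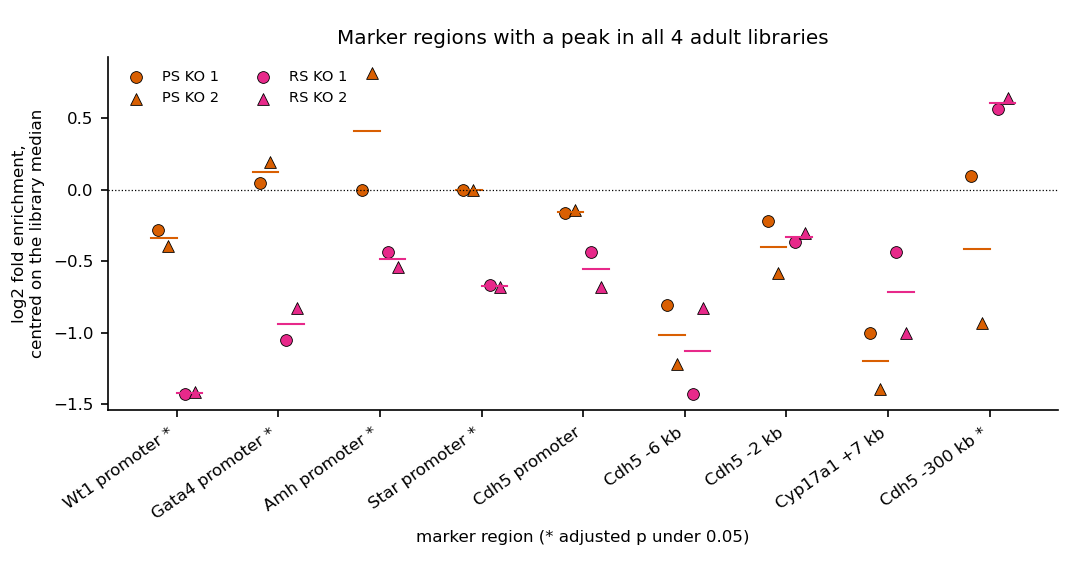
Log2 fold enrichment, centred on each library's median region, for the 9 marker regions with a peak in all 4 adult libraries. Circles and triangles are replicates 1 and 2, short lines are group means, and asterisks mark adjusted p under 0.05. RS lies below PS at the promoters of Wt1, Gata4, Amh and Star and above it at the distal Cdh5 region.

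In the comparison of RS with PS, 9 marker regions of 6 genes had a peak in all 4 adult libraries, and 4 were called lower and 1 higher in RS than in PS by limma. Over all 21329 regions of that fit, 20.2% were called, 12.4% higher and 7.79% lower in RS. The median change was -0.40 log2 units over the 9 marker regions and -0.079 over all regions. Without PS replicate 2 no region at all was called, 6923 of 26558 having an unadjusted p under 0.05.

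Wider lists were read beside the 10 markers, 49 genes with a listed start in all. Over all genes, 72.2% had a promoter peak in both PS libraries and 71.2% in both RS libraries. Of 13 further Sertoli genes, 11 had one in both PS and 3 in both RS libraries. Of 9 Leydig genes the numbers were 7 and 3, of 6 stromal genes 4 and 3, of 8 endothelial genes 4 and 3, and of 7 myoid genes 2 and 4. Macrophage genes went the other way, with 1 of 6 in both PS and 6 of 6 in both RS libraries.

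Peaks in both PS and neither RS libraries, the Sox9 pattern, were found at 13 of the 49 genes (26.5%) against 2.37% of all genes. The lists were chosen with earlier results of these data known, so these shares are a description and no test. Among the 13 were Cldn11, Inhbb, Dhh, Kitl, Aard and Defb19 of the Sertoli list and Cyp11a1, Insl3, Hsd17b3 and Lhcgr of the Leydig list, named after their values were seen. Cldn11, a tight junction protein of the blood-testis barrier, stood at 6.10-fold and 9.60-fold in PS and was called in no other library. Insl3, a peptide hormone of Leydig cells, stood at 7.63-fold and 9.06-fold in PS and was otherwise called only in c-Kit+ KO replicate 1. Dhh and Hsd17b3 were also called in PS only. Inhbb, Kitl, Aard, Defb19, Cyp11a1 and Lhcgr also had peaks in spermatogonia, Kitl in every library, at 4.83-fold to 12.3-fold. Lhcgr ran from 4.48-fold to 8.04-fold where called there, above or level with its PS values of 3.81-fold and 4.80-fold. Cyp11a1 ran from 6.15-fold to 6.84-fold there, against 4.19-fold and 4.80-fold in PS. The count for the Sox9 pattern was 11 (22.4%) with peaks of a −log10 q of at least 5, beside 2.90% of all genes. With the same number of peaks in each library it was 9 (18.4%), beside 3.59%. Both alternatives were chosen for these lists after seeing the data.

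The reverse, peaks in both RS and neither PS libraries, was found at 4 of the 49 (8.16%) against 1.68% of all genes. All 4 were macrophage genes, named after their values were seen: C1qa and C1qb, which encode complement chains, Ptprc, the leukocyte antigen CD45, and Cx3cr1, a chemokine receptor. C1qb stood at 11.3-fold and 9.20-fold in RS. Cx3cr1 stood at 4.30-fold and 3.25-fold, the latter the lowest fold that its library lists. With peaks of a −log10 q of at least 5 the count was 4 (8.16%), beside 1.58% of all genes. The stromal gene Col1a1 then stood in place of Cx3cr1. With equal numbers of peaks the count was 3 (6.12%), beside 1.67%, at Cd68, C1qb and Ptprc. Both settings, like the lists, were chosen with results of these data known. Summed over the 6 macrophage genes, promoter fold was 43.8 and 55.5 in RS, 4.80 to 9.15 in PS, 4.48 to 10.6 in Thy1+ KO and 0 in the other 6 spermatogonial libraries. Summed over the 13 Sertoli genes it was 93.04 to 122 in PS, 16.2 to 29.3 in RS and 26.5 to 74.4 in spermatogonia. The part of other cells in these results was not tested.

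**Figure D4:**
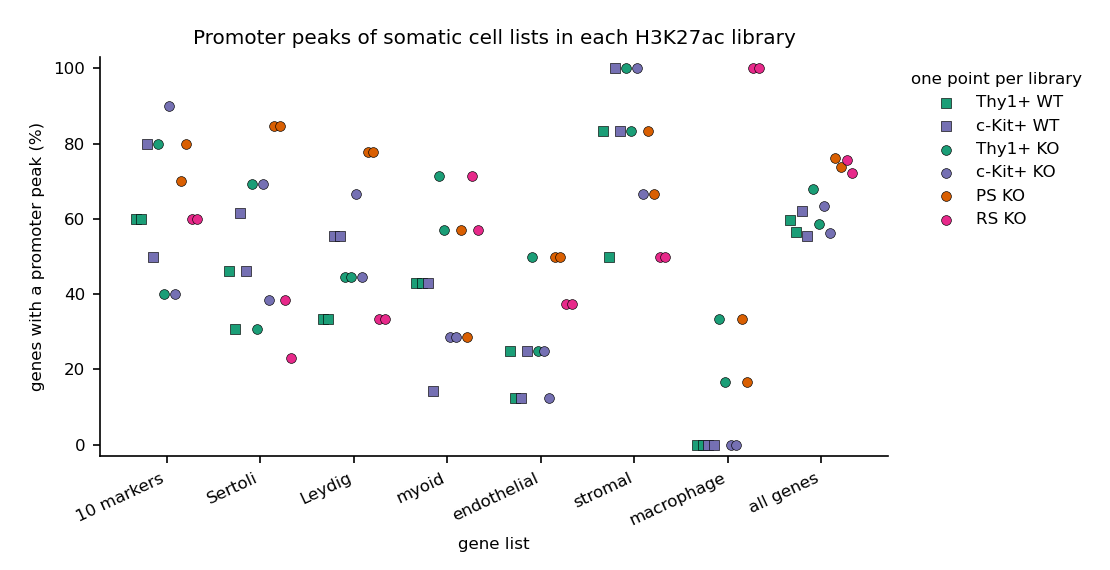
Share of genes with a promoter peak (%) in each H3K27ac library, for the 10 markers, 6 wider lists of somatic genes and all 17923 genes. Each point is 1 library, coloured by population, with squares for WT and circles for KO. PS points are highest for the Sertoli and Leydig lists, and RS points reach 100% for the macrophage list while all genes differ little between PS and RS.

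Only 1 wider gene had a promoter peak in all 4 adult and no KO spermatogonial library, a pattern of 6.08% of all genes: Pecam1, the endothelial adhesion protein CD31, at 4.96-fold and 6.40-fold in PS and 3.91-fold and 4.33-fold in RS. The opposite pattern, found in 0.100% of genes, also held for 1 wider gene, the stromal collagen Col3a1, at 4.26-fold to 6.08-fold in the KO spermatogonia. Neither pattern held for any of the 10 markers. Endothelial and macrophage lists had no gene with a promoter peak in all 4 KO spermatogonial libraries, while the Sertoli list had 3 of 13, Leydig 4 of 9, stromal 3 of 6 and myoid 2 of 7, beside 53.3% of all genes. Replicates differed here too. For the Sertoli list, replicates 1 and 2 held 9 and 4 in Thy1+ KO and 9 and 5 in c-Kit+ KO. For the Leydig list they held 4 and 4, then 6 and 4.

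No marker region passed the test of genotype in spermatogonia. Of 6 regions at Gata4, Pdgfra and Cdh5 tested with stage as a covariate, limma called 0, as it did over all 9585 regions (0%, 502 with an unadjusted p under 0.05). The changes in KO ran from -0.24 to 0.0042 log2 units. For the Gata4 promoter, KO minus WT was -0.07 (SE 0.16, adjusted p = 0.984) with 4 libraries a side, and the WT and KO values overlapped. The 10 genes held 0.145% of peaks in KO spermatogonia (SD 0.0304, n = 4) and 0.142% in WT (SD 0.0337, n = 4), values that overlapped.

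The share of all peaks assigned to the markers was lower in adult cells, at 0.078% (SD 0.0320, n = 4), and was 0.0884% and 0.119% in PS and 0.0546% and 0.0505% in RS. All 4 adult values lay below all 4 KO spermatogonial values of 0.122% to 0.190%, while Thy1+ WT replicate 2, at 0.106%, lay below PS replicate 2. As a share of the length covered by peaks the groups overlapped, with 0.0911% and 0.110% in PS, 0.0374% and 0.0279% in RS and 0.0967% to 0.146% in KO spermatogonia. In number of peaks the order differed, with 61 and 76 in PS, 40 and 32 in RS and 26 to 69 in KO spermatogonia, as adult libraries held more peaks in all.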

How the data were processed

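H3K27ac ChIPmentation and input peak tables of 28 libraries were used. The 10 genes and the wider lists were chosen with earlier results of these data known. Bowtie, MACS2 and mm10 are named in the submitters' processing notes, with versions and settings not given in the sources used here. The peak tables hold, per the file headers, positions, summits, the signal height at a summit, fold enrichment and −log10 p and q. The deposited fold enrichment is a ratio: the height plus 1 over a background plus 1, the background being constant within each library. The −log10 values were deposited by the authors and served only as a filter. Peaks were called per library, and depth is unknown.

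Where a peak had several summits the highest was kept, and the mitochondrial chromosome was left out. Starts came from lines listing 1 symbol. Peaks overlapping by at least 1 bp were merged into regions for each comparison, and each library's highest fold in a region was used. Regions called in every library compared were tested on log2 values centred on the library median, with limma 3.58.1 in R 4.3.3 and Benjamini-Hochberg adjustment over all regions (threshold 0.05). Another fit that gave uncalled libraries their lowest fold (regions called in at least 2 libraries) supports no result here. Stricter peaks are those with −log10 q of at least 5. Named were all 10 genes, each tested region listed under them, and wider genes called in all 4 adult and no KO spermatogonial library or the reverse. The tests were checked on simulated data. Tables and figures were made in Python 3.11.15 (pandas 2.3.3, matplotlib 3.10.9, numpy 2.4.6).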

Additional observations from a re-analysis of the deposited data

Results flagged for a closer look

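The Pdgfra region at 5:75152752-75155305 moved in opposite directions in the 2 genotypes when c-Kit+ was compared with Thy1+ spermatogonia. The difference of mean centred values was -0.11 log2 units in KO and 0.13 in WT, and in each genotype both c-Kit+ libraries lay on the same side of both Thy1+ libraries. The difference between the genotypes was not tested. In the fit over both genotypes the c-Kit+ minus Thy1+ change was 0.01 (SE 0.14, limma, adjusted p = 0.978).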

How the results depend on the processing

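Counts of called regions moved by over 1.5 times as follows. With uncalled libraries given their lowest fold (imputation), 11104 regions were called for adult against KO spermatogonia (3322 otherwise), 7022 for RS against PS (4309), 5 for KO against WT (0) and 771 for c-Kit+ against Thy1+ (104), over more regions tested. In that fit an uncalled library stood at -0.5 in adult cells and 0 in KO spermatogonia after centring (log2), so changes between those groups are not centred on 0, and in each comparison regions absent from a whole group had their direction fixed; none of its calls is used. With stricter peaks, 1982 were called for RS against PS and 18 for c-Kit+ against Thy1+. Leaving out 1 library gave 0 (without PS replicate 2) to 3402 for RS against PS, with 2816 without RS replicate 1. For c-Kit+ against Thy1+ it gave 9 (without Thy1+ WT replicate 1) to 178 (without Thy1+ WT replicate 2), with 46 without c-Kit+ WT replicate 2, 34 without Thy1+ KO replicate 1 or c-Kit+ KO replicate 2, and 28 without c-Kit+ KO replicate 1. Quantile normalization moved the share of higher calls, adult against KO spermatogonia, from 30.5% to 49.7%. The cause was not tested.

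The samples share only a replicate number: correlations of same-numbered deviations ran from -0.0079 to 0.159. With the replicate number as a block, 206 regions were called for c-Kit+ against Thy1+, and no call of a marker region changed. Markers with a promoter peak in both RS libraries went from 6 to 2 with stricter peaks and to 0 with equal numbers of peaks. Markers in all 4 KO spermatogonial libraries went from 3 to 6 when starts on lines with several symbols were added. The marker share in KO spermatogonia was 0.0966% with stricter peaks (0.145% otherwise). Counting only summits within 1 kb, or only peaks listed under the gene alone, both chosen after seeing the data, moved no marker count by over 1.5 times.

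The changes that turned sign had not passed the test. For RS minus PS, the Cdh5 region at 104098892 gave -0.024 under quantile normalization, -0.12 with imputation and -0.21 to 0.21 leaving out 1 library, and the region at 104095323 -0.43 to 0.18. For KO minus WT, leaving out 1 library gave -0.18 to 0.033 at the Gata4 promoter, -0.24 to 0.13 at the Pdgfra region at 75155453 (0.0075 with stricter peaks) and -0.090 to 0.14 at the Cdh5 promoter. For c-Kit+ minus Thy1+, the Pdgfra region at 75152752 gave -0.042 under quantile normalization, -0.19 with imputation and -0.017 to 0.043 leaving out 1 library. With imputation the other Pdgfra region gave -0.053 and the Cdh5 promoter -0.063.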
